A study of Mus musculus with 12 samples.

Results

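The DNA replication licensing genes are the 10 mouse genes Mcm2, Mcm3, Mcm4, Mcm5, Mcm6, Mcm7, Mcm10, Cdc6, Cdt1 and Cdc45, out of 47729 genes counted in hearts. They were listed by function, and Mcm2 and Mcm5 had already been noted as low in hearts given EHP-101, without a statement of which group they were set against. All 10 had enough reads to be among the 15336 genes tested. Heart RNA was sequenced in 12 libraries, 3 in each of 4 groups. All mice were male C57BL/6 of 8 weeks and carried a pump under the skin for 28 days. Ang II plus EHP-101 hearts received angiotensin II (Ang II) with oral EHP-101 at 20 mg/kg in the last 2 weeks, and Ang II plus losartan hearts received Ang II with losartan at 0.6 g/L of drinking water over the same weeks. Ang II hearts received Ang II with vehicle, and control hearts, whose titles also carry the words Ang II control, were taken as the saline group of the design. EHP-101 is an oral form of a compound derived from cannabidiol that activates PPARγ and CB2, losartan blocks the Ang II receptor AT1, and Ang II raises blood pressure and brings on cardiac fibrosis. Both compounds were given while the infusion went on, so their hearts carry the effect of Ang II as well.

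Licensing prepares replication origins before a cell copies its DNA. The origin recognition complex, Cdc6 and Cdt1 load the ring of MCM2 to MCM7 onto DNA in G1 phase, and Cdc45 and the GINS complex later turn the ring into the active helicase with the help of MCM10. Most of these genes are targets of E2F transcription factors and are expressed in cycling cells. Cardiomyocytes of the adult heart rarely divide, while fibroblasts, endothelial cells and leukocytes of the heart can, and these libraries hold the RNA of all of them. In such bulk tissue, fewer cycling cells and less RNA per cell cannot be told apart.

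Total counts were 22155418 to 24040516 per library. The labels do not say whether replicates came from separate animals, so p-values measure only how far these libraries vary, and that variation could be technical. Control replicate 2 stood apart from the other libraries on the first principal component, at 84.37 against -32.41 to 12.72, and results that rest on it are also given without it. The summed level of 8 cardiomyocyte markers was 52520 to 72330 CPM (counts scaled to library size) across the libraries, with no marker at 0. Markers of atrial tissue varied widely, with sums of 558 to 1171 CPM in Ang II plus EHP-101 hearts, 88.6 to 2137 CPM in Ang II plus losartan hearts, 1606 to 2886 CPM in Ang II hearts and 308.1 to 1910 CPM in control hearts. The labels do not say which part of the heart was taken.

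The genes are spread over the genome, in the GRCm38 build with GENCODE M21. Mcm3 and Mcm6 both lie on chromosome 1, from 20802968 to 20820312 and from 128331590 to 128359664. Mcm4 and Cdc45 lie on chromosome 16, from 15623897 to 15637400 and from 18780447 to 18811987, and Mcm5 and Cdt1 on chromosome 8, from 75109569 to 75128439 and from 122568015 to 122573554. Mcm2 lies on chromosome 6 from 88883474 to 88898780, Mcm7 on chromosome 5 from 138164583 to 138172422, Mcm10 on chromosome 2 from 4989714 to 5012791 and Cdc6 on chromosome 11 from 98907801 to 98923940. Of the exon bases of Mcm7, 7.25% are shared with Ap4m1 on the other strand, and 5.96% of those of Cdc45 with Ufd1. The library kit keeps no strand, so reads from these stretches cannot be assigned by strand. Mcm7 also hosts the microRNA genes Mir25 and Mir93, whose bases make up 1.90% and 1.99% of its annotated exons.

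The promoters are shown because the genes share a transcriptional regulator by background knowledge, the E2F family. Promoter windows from RefSeq on GRCm38.p6, 250 bases before to 50 after a start site, were found for 9 of the 10 genes. An E2F core of 8 letters, any of TTTCCCGC, TTTGGCGC, TTTCGCGC and TTTGCCGC on either strand, was present in the windows of 6 of these 9 genes, Mcm3, Mcm5, Mcm6, Mcm7, Cdc6 and Cdt1, and in 2.26% of all 32851 windows. The letters CCAAT, the box bound by NF-Y, were found in 7 of the 9 genes and in 37.4% of all windows. The cell cycle homology region, TTTGAA or TTCGAA, was found in 3 of the 9 genes and in 19.2% of windows. A match describes letters and not a bound site. The 4 genes below have the highest levels among those with an E2F core. Each sequence runs 5′ to 3′ along its gene and ends 30 bases after the start site, with E2F cores in capitals. They cover chr1:128359676-128359955, chr5:138171854-138172133 and chr1:20820283-20820562, all on the minus strand, and chr8:75109259-75109538 on the plus strand.
Mcm6: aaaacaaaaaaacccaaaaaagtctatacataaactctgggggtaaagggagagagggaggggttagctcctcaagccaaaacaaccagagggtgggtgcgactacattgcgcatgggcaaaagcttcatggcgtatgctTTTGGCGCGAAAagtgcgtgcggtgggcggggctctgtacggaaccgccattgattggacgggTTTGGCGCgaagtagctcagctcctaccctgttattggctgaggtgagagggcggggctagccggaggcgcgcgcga
Mcm7: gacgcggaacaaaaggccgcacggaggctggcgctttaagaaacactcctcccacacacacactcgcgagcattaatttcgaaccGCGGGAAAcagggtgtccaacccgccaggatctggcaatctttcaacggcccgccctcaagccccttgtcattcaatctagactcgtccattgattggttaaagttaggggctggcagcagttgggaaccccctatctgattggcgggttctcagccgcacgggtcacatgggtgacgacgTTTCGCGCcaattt
Mcm3: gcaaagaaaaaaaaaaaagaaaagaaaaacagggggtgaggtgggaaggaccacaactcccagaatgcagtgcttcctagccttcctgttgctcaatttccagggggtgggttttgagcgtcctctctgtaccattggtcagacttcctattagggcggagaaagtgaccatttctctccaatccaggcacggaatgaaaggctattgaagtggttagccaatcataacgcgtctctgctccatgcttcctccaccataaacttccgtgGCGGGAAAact
Mcm5: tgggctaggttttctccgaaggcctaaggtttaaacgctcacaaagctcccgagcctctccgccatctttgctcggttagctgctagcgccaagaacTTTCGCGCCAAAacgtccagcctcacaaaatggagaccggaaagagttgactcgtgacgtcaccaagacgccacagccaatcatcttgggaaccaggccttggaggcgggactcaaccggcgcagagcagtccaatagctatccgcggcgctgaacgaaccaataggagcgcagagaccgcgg
In Mcm6 and Mcm5, a pair of cores on opposite strands overlap and form a single run of capitals. A further core of Mcm3 begins 38 bases after the start site, beyond the stretch shown. The window of Mcm2 held a CCAAT box and a TTTGAA and no E2F core of these letters.

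The hexamer genes were the most abundant. Per kilobase of exon, over all 12 libraries, Mcm4 had 3.03 ± 0.435 CPM, Mcm6 2.99 ± 0.405, Mcm3 2.24 ± 0.659 and Mcm7 2.17 ± 0.364 (SD, n = 12). Mcm2 and Mcm5 followed at 1.28 ± 0.466 and 1.28 ± 0.527 CPM per kilobase. Cdc45, a part of the active helicase, had 0.879 ± 0.191 and the loader Cdt1 0.517 ± 0.176 CPM per kilobase. Cdc6 and Mcm10 were lowest, at 0.165 ± 0.0750 and 0.0893 ± 0.0465 CPM per kilobase. Neighbours in this order overlapped in range, except Cdt1 and Cdc6. Exon length is the union of all annotated transcripts. It is longest for Mcm10 at 7692 bases and next for Mcm2 at 6956 bases, which lowers their values per kilobase. Counts per library were 252 to 451 reads for Mcm6 and 4 to 41 for Mcm10, so that Mcm10 and Cdc6, with 8 to 42 reads, carry the largest counting error.

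The comparison of Ang II plus EHP-101 with Ang II alone asks what the compound changed during the infusion. Its values are given as a description without a test, because the genes were chosen on the EHP-101 libraries. Of the 10 genes, 9 lay lower in every EHP-101 library than in every Ang II library, as did 9.74% of all tested genes. Mcm2, a hexamer subunit and a histone chaperone, had 4.99, 5.003 and 6.26 CPM in Ang II plus EHP-101 hearts, against 7.56, 9.97 and 9.78 CPM in Ang II hearts. Its highest EHP-101 value lay below its lowest Ang II value, and its fitted log2 fold change was -0.75 ± 0.22 (SE). Mcm5, its neighbour at the gate of the ring, had 2.88, 2.62 and 3.59 CPM in EHP-101 hearts, against 4.48, 4.61 and 6.90 CPM in Ang II hearts. Its log2 fold change was -0.81 ± 0.25. Mcm3, the other neighbour of Mcm5 in the ring, had 5.96, 5.42 and 5.87 CPM in EHP-101 hearts, against 7.63, 8.31 and 10.8 CPM in Ang II hearts (log2 fold change -0.63 ± 0.20). The 3 EHP-101 libraries of Mcm3 were closer to each other than the Ang II libraries were.

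**Figure D1:**
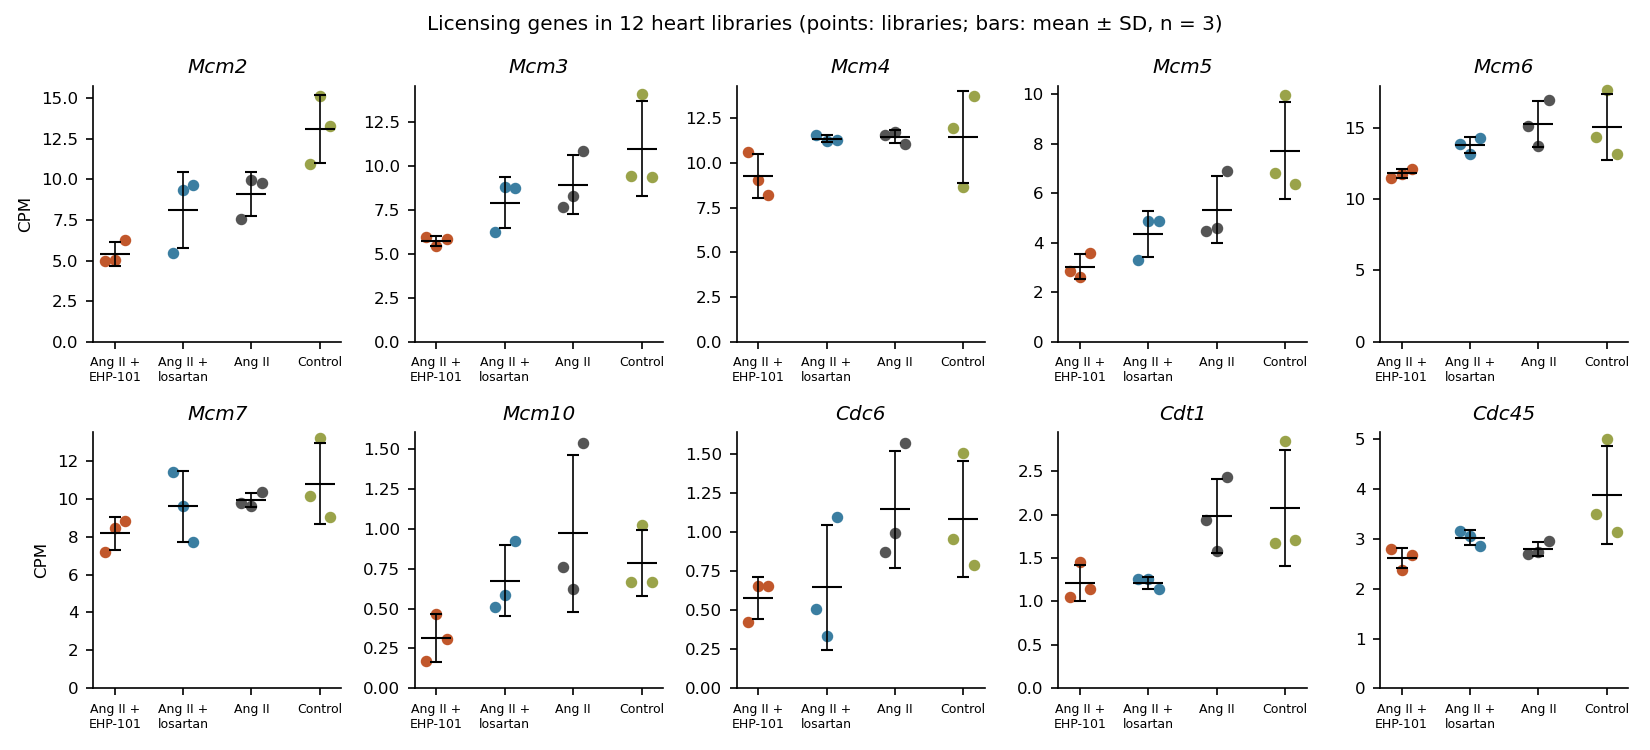
CPM of the 10 licensing genes in every library, with the mean and SD of the 3 libraries of each group. In 9 panels the 3 Ang II plus EHP-101 points lie below the 3 Ang II points, and Cdc45 is the panel in which they overlap.

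Mcm4, Mcm6 and Mcm7, which form a stable subcomplex of the ring, differed less. Mcm6 had 11.5, 11.8 and 12.1 CPM in EHP-101 hearts, against 15.1, 13.7 and 16.9 CPM in Ang II hearts (log2 fold change -0.37 ± 0.13). Mcm4 had 10.6, 9.07 and 8.19 CPM in EHP-101 hearts, against 11.6, 11.8 and 11.1 CPM in Ang II hearts (log2 fold change -0.30 ± 0.16). The groups did not overlap for either gene, although the nearest libraries of Mcm4 were close. Mcm7 had 7.19, 8.46 and 8.84 CPM in EHP-101 hearts, against 9.80, 9.64 and 10.3 CPM in Ang II hearts (log2 fold change -0.28 ± 0.18).

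The loaders Cdc6 and Cdt1 were low-count genes. Their fitted differences were larger than those of Mcm4, Mcm6 and Mcm7, with a log2 fold change of -0.99 ± 0.44 for Cdc6. Cdc6 had 10, 14 and 15 reads in EHP-101 hearts and 23, 24 and 42 in Ang II hearts, which is 0.578 ± 0.134 CPM in EHP-101 hearts and 1.15 ± 0.374 CPM in Ang II hearts (SD, n = 3 each). Cdt1, which brings the ring to the origin, had 1.06, 1.45 and 1.14 CPM in EHP-101 hearts, against 1.94, 1.58 and 2.44 CPM in Ang II hearts (log2 fold change -0.71 ± 0.27). Both were lower in every EHP-101 library. Mcm10, which helps activate the helicase, had the largest fitted fold change of the 10 at -1.63 ± 0.46, from 4, 10 and 7 reads in EHP-101 hearts and 20, 15 and 41 in Ang II hearts. Cdc45 had 2.79, 2.38 and 2.67 CPM in EHP-101 hearts, against 2.70, 2.74 and 2.96 CPM in Ang II hearts (log2 fold change -0.10 ± 0.20). Its groups overlapped.

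The median log2 fold change of the 10 genes between EHP-101 and Ang II hearts was -0.67, and that of all tested genes was 0.00. No gene passed an adjusted p of 0.05 in edgeR, the tool used here, a share of 0%. At an unadjusted p under 0.05 there were 1108 genes. DESeq2 called 61 genes (0.386%) and limma-voom 0 (0%), with 0 of the 10 genes among them. Markers of some other cell types were also lower in EHP-101 hearts. Cardiomyocyte markers lay the other way, with 0 of 8 log2 fold changes below 0 and a median of 0.21, although their sums overlapped. Of these 8, 2 were higher in every EHP-101 library, as were 7.01% of all genes. Sums over 5 neutrophil and 5 erythroid markers overlapped. Sums over 8 macrophage and monocyte markers were 105.9 to 202.7 CPM in EHP-101 hearts and 231.8 to 306.8 CPM in Ang II hearts. Sums over 7 dendritic cell and class II markers were 139.0 to 150.1 CPM in EHP-101 hearts and 270.8 to 419.3 CPM in Ang II hearts, and those over 5 B cell markers 6.36 to 14.9 CPM in EHP-101 hearts and 20.0 to 30.6 CPM in Ang II hearts. Sums over 7 T and NK cell markers were low, at 2.24 to 3.85 CPM in EHP-101 hearts and 4.40 to 6.00 CPM in Ang II hearts. Only 4 of these 7 had enough reads to be tested. Of the 4, 2 were lower in every EHP-101 library, as were 9.74% of all genes. Fibroblast sums overlapped, at 1959 to 2383 CPM in EHP-101 hearts and 2173 to 3297 CPM in Ang II hearts, as did smooth muscle sums, at 312.9 to 452.3 CPM in EHP-101 hearts and 396.9 to 706.7 CPM in Ang II hearts, although all 7 fibroblast and all 4 smooth muscle markers had log2 fold changes below 0. No marker of these lists was at 0 in all libraries. The atrial sums also did not overlap between these groups, while those of 7 endothelial markers did, at 1006 to 1262 CPM in EHP-101 hearts and 1183 to 1278 CPM in Ang II hearts. The part of these cells in the difference was not tested.

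Against control hearts the EHP-101 values were lower still for the genes noted at the start. Mcm2 had 10.9, 15.1 and 13.3 CPM in control hearts, and its fitted log2 fold change for EHP-101 against control was -1.27 ± 0.22. Mcm5 had 6.81, 9.96 and 6.38 CPM in control hearts, with a log2 fold change of -1.34 ± 0.25. All 10 log2 fold changes were below 0, as were 54.1% of those of all genes, with a median log2 value of -0.83, and 9 genes were lower in every EHP-101 library than in every control library, as were 10.4% of all tested genes. Without Control replicate 2 that held for 10 of the 10 genes and for 17.5% of all tested genes, and the median was -0.54. Mcm2 and Mcm5 were among the 61 genes that edgeR called in this contrast, 0.398% of those tested. This call uses the EHP-101 libraries in which they were noted and is no independent evidence. When any 1 of the 9 EHP-101, Ang II and control libraries was left out, the count of the 10 genes called was 0 or 1. Marker sums also differed without overlap between these groups. Macrophage and monocyte sums were 105.9 to 202.7 CPM in EHP-101 hearts and 216 to 235.5 CPM in control hearts. Class II sums were 139.0 to 150.1 CPM in EHP-101 hearts and 160.9 to 253.9 CPM in control hearts, and B cell sums were 6.36 to 14.9 CPM in EHP-101 hearts and 17.5 to 22.6 CPM in control hearts. Log2 fold changes were below 0 for 7 of 8 macrophage and monocyte, 4 of 7 class II and 5 of 5 B cell markers. Of these lists, 1, 2 and 2 markers were lower in every EHP-101 library than in every control library, beside 10.4% of all genes. Single class II markers ranged from -0.57 to 0.56, so the sum does not stand for each of them. Fibroblast sums lay the other way, at 1959 to 2383 CPM in EHP-101 hearts and 1147 to 1705 CPM in control hearts. Of the 7 fibroblast markers, 5 were higher in every EHP-101 library, beside 10.7% of all genes, and 1 had a log2 fold change below 0. The part of these cell types in the difference was not tested.

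The comparison of Ang II with control asks what the infusion did to licensing genes, and none of the 10 passed, where 0.541% of all genes did (83 genes, edgeR). Log2 fold changes were below 0 for 7 of them, where 50.1% of all genes were, and the median was -0.09. Mcm2 was lower in each Ang II library than in each control library, at 9.10 ± 1.34 CPM in Ang II hearts and 13.1 ± 2.096 CPM in control hearts (log2 fold change -0.52 ± 0.21, adjusted p = 0.249, edgeR). Cdc45 also did not overlap, at 2.80 ± 0.142 CPM in Ang II hearts and 3.88 ± 0.992 CPM in control hearts (log2 fold change -0.46 ± 0.20, adjusted p = 0.259, edgeR). Lower values without overlap were found for these 2 of the 10 genes and for 10.3% of all genes. Mcm5 had 5.33 ± 1.36 CPM in Ang II hearts and 7.71 ± 1.95 CPM in control hearts (adjusted p = 0.279, edgeR). At an unadjusted p under 0.05 there were 3 of the 10, Mcm2, Mcm5 and Cdc45, and 17.6% of all genes. Either group may have been the one that Mcm2 and Mcm5 were set against when they were noted. Their values here are therefore no independent evidence. Mcm4 and Mcm6 had log2 fold changes of -0.00 ± 0.16 and 0.02 ± 0.13. Mcm4 was low in Control replicate 2, at 8.66 CPM, where the other controls had 11.9 and 13.7 CPM. Without Control replicate 2, 3 of the 10 genes and 18.3% of all genes did not overlap in the lower direction. DESeq2 called 513 genes (3.36%) and limma-voom 51 (0.333%), with 0 of the 10 among them.

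**Figure D2:**
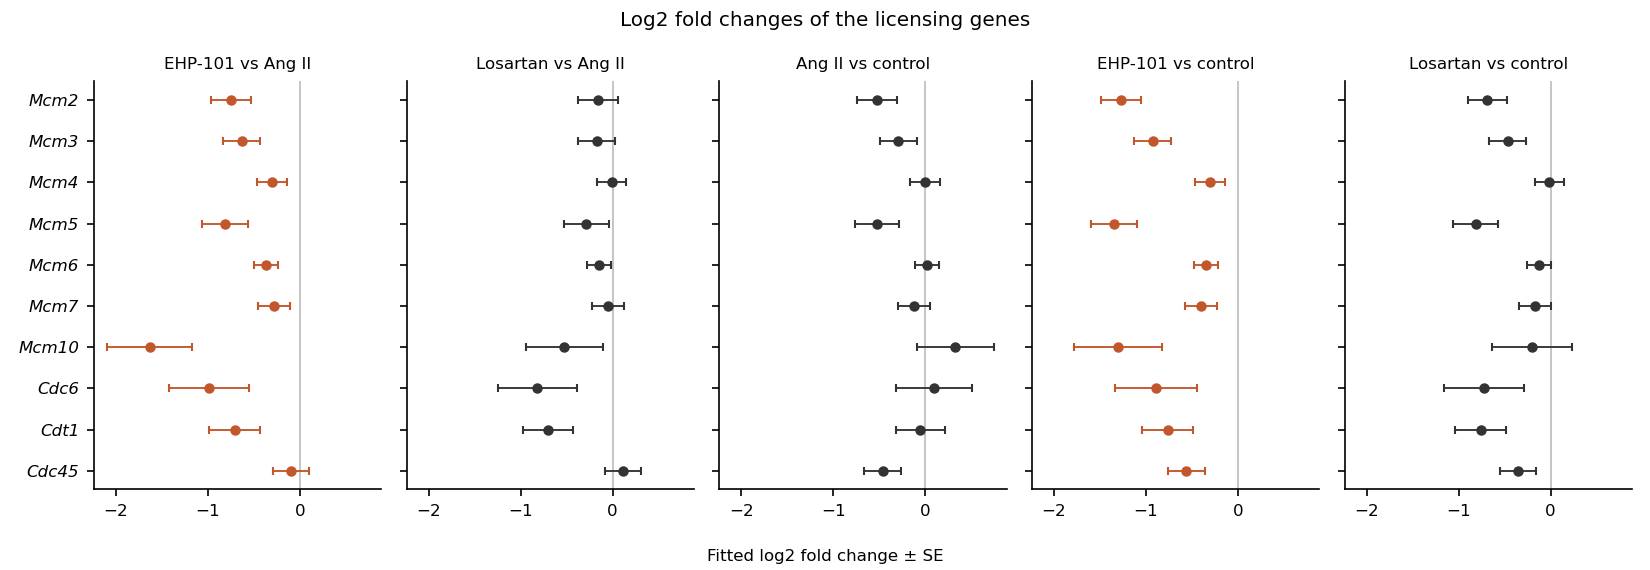
Fitted log2 fold changes with SE for the 10 genes in 5 comparisons. Panels in orange involve the EHP-101 libraries and are descriptive, and in the panels in black no gene passed an adjusted p of 0.05.

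Losartan against Ang II gave no call among the 10 genes or among all genes (0 genes, 0%, edgeR). The Ang II libraries may have been the ones that Mcm2 and Mcm5 were set against when they were noted. There were 1289 genes, 8.41%, at an unadjusted p under 0.05, with Cdt1 alone among the 10, and DESeq2 called 108 genes (0.734%) and limma-voom 0 (0%), none of them among the 10. Cdt1 had 1.25, 1.25 and 1.14 CPM in Ang II plus losartan hearts, against 1.94, 1.58 and 2.44 CPM in Ang II hearts. The groups did not overlap, as was the case in the lower direction for 10.5% of all genes, and the log2 fold change was -0.71 ± 0.27 (adjusted p = 0.485, edgeR). Cdc6 had 0.511, 0.335 and 1.10 CPM in losartan hearts, against 0.873, 0.997 and 1.57 CPM in Ang II hearts, with overlap (log2 fold change -0.82 ± 0.43, adjusted p = 0.642, edgeR). The other 8 genes had log2 fold changes of -0.53 to 0.11 with adjusted p values of 0.808 or more in edgeR, and the median of the 10 was -0.17.

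Losartan against control compares group means without an EHP-101 library, although the fit took its scaling and spread from all 12 libraries. The control libraries may also have been the ones that Mcm2 and Mcm5 were set against when they were noted. All 10 log2 fold changes were below 0, where 52.8% of all genes were, and their median was -0.41. In this contrast 4 genes, Mcm2, Mcm3, Mcm5 and Cdt1, were lower in every losartan library than in every control library, as were 7.09% of all genes. Mcm5 had 3.3, 4.89 and 4.89 CPM in losartan hearts, against 6.81, 9.96 and 6.38 CPM in control hearts (log2 fold change -0.82 ± 0.24). Mcm2 had 5.44, 9.32 and 9.61 CPM in losartan hearts, against 10.9, 15.1 and 13.3 CPM in control hearts (log2 fold change -0.69 ± 0.22). The log2 fold changes of Mcm3 and Cdt1 were -0.47 ± 0.20 and -0.76 ± 0.27. These 4 genes each had an adjusted p of 0.456 in edgeR, which called 0 of all genes, 0%. The same 4 were below an unadjusted p of 0.05, as were 1640 genes or 10.7% of all, and DESeq2 called 22 genes (0.161%) and limma-voom 0 (0%), none of them among the 10. Without Control replicate 2, 5 of the 10 genes and 12.1% of all genes did not overlap in the lower direction. Losartan replicate 1 had the lowest losartan value of Mcm2, Mcm3 and Mcm5 and the highest of Mcm7, at 11.4 CPM against 9.62 and 7.72 CPM.

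By median, the 10 genes differed less between EHP-101 and losartan hearts than between EHP-101 hearts and Ang II or control hearts. The median log2 fold change of EHP-101 against losartan was -0.26, and 5 of the 10 genes, Mcm3, Mcm4, Mcm6, Mcm10 and Cdc45, were lower in every EHP-101 library, as were 6.74% of all genes. Cdt1 had the same mean in both, 1.22 ± 0.207 CPM in EHP-101 hearts and 1.22 ± 0.0671 CPM in losartan hearts, and Mcm6 had 11.8 ± 0.333 CPM in EHP-101 hearts and 13.8 ± 0.565 CPM in losartan hearts. These values are a description, as they use the EHP-101 libraries. The comparisons share the Ang II, losartan or control libraries, so a high or low library enters several of them.

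Within the hexamer, Mcm2, Mcm3 and Mcm5 varied together and Mcm4, Mcm6 and Mcm7 varied less. This split was seen in the values and was not fixed beforehand, so it carries no test. The summed CPM of the 6 genes was 43.4 ± 1.29 in EHP-101 hearts, 55.1 ± 2.88 in losartan hearts, 60.0 ± 5.13 in Ang II hearts and 69.1 ± 8.32 in control hearts (SD, n = 3 each). The ratio of summed CPM of Mcm2, Mcm3 and Mcm5 to that of Mcm4, Mcm6 and Mcm7 was 0.472, 0.445 and 0.539 in EHP-101 hearts and 0.406, 0.676 and 0.698 in losartan hearts. It was 0.539, 0.652 and 0.718 in Ang II hearts and 0.747, 0.993 and 0.808 in control hearts. All 9 libraries with Ang II lay below all 3 control libraries, and the 3 EHP-101 libraries lay at or below the lowest Ang II library, with Losartan replicate 1 lowest of all. Per kilobase, Mcm5 made up 6.7% to 8.78% of the hexamer sum in EHP-101 hearts, 6.86% to 9.5% in losartan hearts, 8.68% to 11.5% in Ang II hearts and 10.9% to 14.2% in control hearts.

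**Figure D3:**
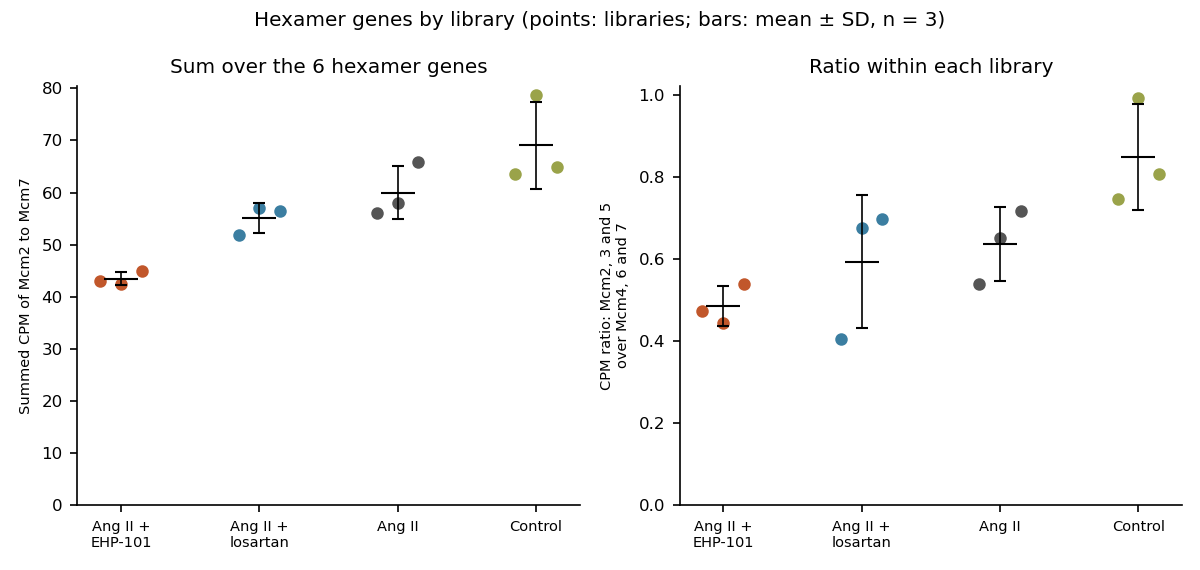
Left, the summed CPM of Mcm2 to Mcm7 in each library, and right, the ratio of Mcm2, Mcm3 and Mcm5 to Mcm4, Mcm6 and Mcm7, with mean and SD of 3 libraries a group. The sum is lowest in the EHP-101 libraries, and all control ratios lie above those of the other 9 libraries.

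Over the 12 libraries the log2 levels of Mcm3 and Mcm5 had a Pearson r of 0.975, those of Mcm2 and Mcm5 0.947 and those of Mcm2 and Mcm3 0.932. Across all 45 pairs of the 10 genes the median was 0.679 over 12 libraries and 0.596 over the 11 without Control replicate 2. Mcm4 was least like the others, and its r with Cdc45 was -0.089 over the 12 libraries and 0.651 without Control replicate 2. These are descriptions of the same 12 libraries, which share group differences and scaling. Outside the list, the 6 genes most like the mean log2 level of the 10, among 12308 protein-coding genes with a mean of at least 1 CPM, were Jpt2, Lmnb1, Racgap1, Ckap2l, Slbp and Prcp, with r of 0.915 to 0.964 over 12 libraries and 0.873 to 0.948 over 11. They head a larger group, as 115 of the 12308 genes had an r of at least 0.8 over the 12 libraries. Lmnb1 encodes the nuclear envelope protein lamin B1, Racgap1 and Ckap2l act in cell division, Slbp binds histone messenger RNA, and Prcp encodes a carboxypeptidase that can cleave Ang II. Prcp had 13.2 ± 1.18 CPM in EHP-101 hearts, 18.7 ± 1.46 in losartan hearts, 19.9 ± 2.54 in Ang II hearts and 20.5 ± 5.13 in control hearts.

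Of the 10 genes, 3 start head to head with another gene. Prkdc, the catalytic subunit of DNA-dependent protein kinase, starts 466 bp from Mcm4, Ap4m1, an adaptor complex subunit, 420 bp from Mcm7, and Ufd1, a cofactor in protein degradation, 208 bp from Cdc45. Between EHP-101 and Ang II hearts the log2 fold changes of Prkdc, Ap4m1 and Ufd1 were -0.00 ± 0.18, -0.07 ± 0.145 and 0.17 ± 0.10 (SE). Those of Mcm4, Mcm7 and Cdc45 were -0.30 ± 0.16, -0.28 ± 0.18 and -0.10 ± 0.20. Between Ang II and control hearts they were 0.21 ± 0.18, 0.27 ± 0.15 and -0.15 ± 0.10 for the neighbours. For Mcm4, Mcm7 and Cdc45 they were -0.00 ± 0.16, -0.12 ± 0.17 and -0.46 ± 0.20. Whether neighbours differed from each other was not tested.

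Other genes of replication were described by lists, with the same 0 calls in edgeR for every list in each comparison. The list of origin recognition and licensing control, which also held Mcm8 and Mcm9, had 10 genes. Its median log2 fold change between EHP-101 and Ang II hearts was -0.01, with 0 lower in every EHP-101 library, where 9.74% of all genes were. Gmnn, the inhibitor of Cdt1, had 31.7 ± 4.05 CPM in EHP-101 hearts and 25.1 ± 4.14 CPM in Ang II hearts, with overlap (log2 fold change 0.34 ± 0.24). Mcmbp, which binds MCM proteins, had 32.9 ± 1.55 CPM in EHP-101 hearts and 33.6 ± 1.05 CPM in Ang II hearts, also with overlap. Beside that share of 9.74%, 2 of 11 tested GINS and origin firing genes were lower in every EHP-101 library (median -0.15), and of 22 polymerase, clamp and clamp loader genes 5 were (median -0.12). Pcna, the sliding clamp, had 17.2 ± 0.825 CPM in EHP-101 hearts and 17.9 ± 1.34 CPM in Ang II hearts. Of 8 genes of deoxynucleotide synthesis, 4 were lower in every EHP-101 library (median -0.32), and of 8 fork protection and chromatin assembly genes 4 were (median -0.26).

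Mitosis genes had the largest median difference of these lists, with a median of -1.06 between EHP-101 and Ang II hearts. All 16 were below 0, as were 50% of all genes, and 10 were lower in every EHP-101 library, as were 9.74% of all genes. Mki67, a marker of cycling cells, had 1.14, 5.66 and 6.44 CPM in EHP-101 hearts, against 9.42, 10.1 and 18.1 CPM in Ang II hearts. Top2a, which untangles replicated DNA, had a log2 fold change of -1.80, and 1 EHP-101 library lay far below the other 2 for both. Their levels in losartan hearts, 10.5 ± 3.37 CPM for Mki67 and 7.06 ± 1.11 CPM for Top2a, overlapped those of Ang II hearts, and the median of the list between losartan and Ang II hearts was -0.28. Between Ang II and control hearts it was -0.05.

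**Figure D4:**
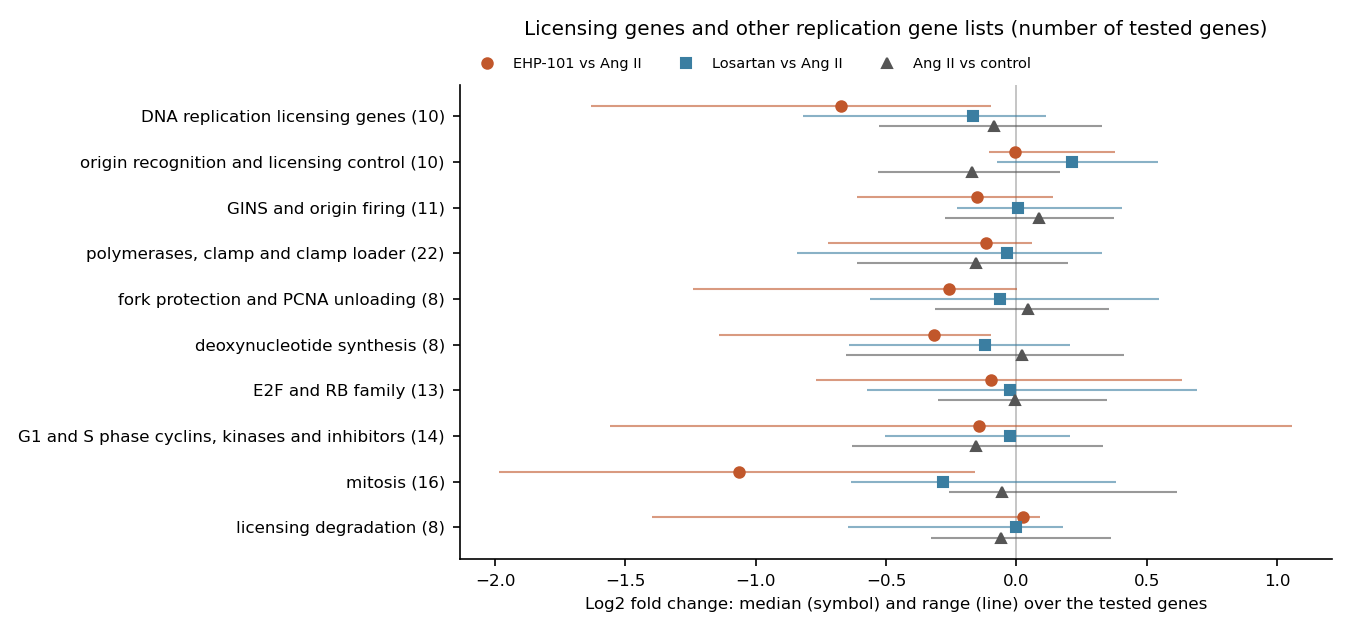
Median and range of log2 fold changes for the 10 licensing genes and 9 other replication and cell cycle lists in 3 comparisons, with the number of tested genes in parentheses. Between EHP-101 and Ang II the licensing median is -0.67, that of mitosis genes -1.06 and that of the origin recognition list -0.01.

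Regulators upstream of the licensing genes had smaller median differences. In the E2F and RB family, 9 of 13 log2 fold changes between EHP-101 and Ang II hearts were below 0, where 50% of those of all genes were. Their median was -0.10 and their range -0.77 to 0.63. In every EHP-101 library 2 of the 13 were lower and 1 was higher, beside 9.74% and 7.01% of all genes. E2f1, an activator of the licensing genes, had 1.39 ± 0.628 CPM in EHP-101 hearts and 2.05 ± 0.501 CPM in Ang II hearts, with overlap. Of 14 cyclins, kinases and inhibitors of G1 and S phase, 12 had log2 fold changes below 0 and 2 were lower in every EHP-101 library. Their median was -0.14, with a wide range of -1.56 to 1.06. Cdkn1a, which encodes the CDK inhibitor p21, had 27.7, 207.6 and 31.5 CPM in EHP-101 hearts, against 40.3, 40.0 and 47.8 CPM in Ang II hearts, so that its positive log2 fold change of 1.06 came from EHP-101 replicate 2. Of the 8 genes of ubiquitin ligases that degrade Cdt1 or act beside them, none was lower in every EHP-101 library (median 0.02). Dtl, the receptor that brings Cdt1 to its ligase, is named here on the basis of its values, and had 0.169, 0.701 and 0.306 CPM in EHP-101 hearts against 0.987, 0.665 and 1.42 CPM in Ang II hearts.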

How the data were processed

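Mouse heart RNA was sequenced as 12 poly(A) libraries without strand, 3 in each of 4 groups taken from the labels. The authors deposited 1 table of raw read counts per Ensembl gene. The submitters' processing notes name fastp 0.20.0, HISAT2 2.1.0, featureCounts 2.0.0, edgeR 3.30.0 and GRCm38. How reads shared by overlapping genes were counted is not given in the sources used here.

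Counts were tested with edgeR 4.0.16 in R 4.3.3: TMM scaling, filterByExpr, 1 quasi-likelihood fit of 12 libraries with a mean per group, and Benjamini-Hochberg adjustment over 15336 genes with a threshold of 0.05. CPM use TMM-scaled totals, and correlations use log2 CPM with a prior count of 2. The scripts were tested on simulated data. Alternatives were RLE factors, library size alone, other filters, DESeq2 1.42.0, limma-voom (limma 3.58.1), a replicate block, only the 2 groups compared, and each library left out. Deviations of same-numbered libraries had a median correlation of 0.012 over 18 pairs, so the numbers were not taken to pair samples.

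The 10 genes, the lists and the tests were chosen with earlier results of these data known. The note on Mcm2 and Mcm5 names no group they were set against. The design took this to be Ang II, and it could equally have been control. Named genes were the 10, up to 4 tested genes of highest mean CPM per list, Gmnn, Mcmbp, E2f1, Mki67, Top2a, head-to-head neighbours, and the 6 protein-coding genes most like the mean of the 10.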

Additional observations from a re-analysis of the deposited data

How the results depend on the processing

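In the 3 tested comparisons the count of licensing genes called was 0 in all 20 alternatives, among them the replicate block. Depth limits Mcm10 and Cdc6, which had no value at a mean of at least 1 CPM. For EHP-101 against control, edgeR called 2 of the 10 genes and 0.398% of all genes. DESeq2 called 3 of the 10 and 3.34% of all genes, and limma-voom 1 of the 10 and 0.293%. The edgeR count of the 10 was 0 with library size alone or only the 2 groups compared. It was 1 with the replicate block, and 0 to 2 with 1 library left out. These calls use the EHP-101 libraries in which Mcm2 and Mcm5 were noted and are no independent evidence. The median log2 fold change in that comparison was -0.83, -0.54 without Control replicate 2, and -0.95 to -0.54 over all libraries left out. The medians for EHP-101 against Ang II were -0.73 to -0.50 and against losartan -0.34 to -0.26 with 1 library left out. For all genes, Ang II against control gave 83 calls, 167 without a filter, 513 with DESeq2, 51 with limma-voom, 20 with only the 2 groups, 57 with the replicate block, and 8 to 151 with 1 library left out. Leaving out Ang II replicate 1, 2 or 3 gave 8, 151 and 8 calls, and leaving out Control replicate 1, 2 or 3 gave 25, 15 and 21. Losartan against Ang II gave 0 calls, 30 without a filter, 108 with DESeq2, 1 with only the 2 groups and 0 to 3 with 1 library left out, with 3 without Control replicate 2. Losartan against control gave 0 calls and 22 with DESeq2. The cause of these changes was not tested. With library size alone, all tested genes had a median log2 fold change of -0.149 for EHP-101 against Ang II, -0.118 for losartan against Ang II and 0.170 for Ang II against control, where TMM gave 0.000, 0.003 and -0.001. No fold change of the 10 genes changed sign in either EHP-101 comparison with Ang II or control (0 of 198 values each). For Ang II against control, losartan against control and losartan against Ang II, sign changes were 18, 9 and 5 of 198 values. None of these values passed a test. For EHP-101 against losartan, which was described without a test, there were 6 of 198.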
